A study of Homo sapiens with 6 samples.

Results

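The transcripts described here encode 8 proteins that bind AU-rich elements or small stem-loops in messenger RNA and set how long that RNA lasts. They are ZFP36, ZFP36L1, ZFP36L2, ELAVL1, KHSRP, ZC3H12A, RC3H1 and RC3H2, taken as a fixed list and matched by Ensembl gene identifier. All 8 were found among the 19493 genes with values, and all 8 passed the filter on low values. RNA was sequenced from HaCaT cells, an immortalised human keratinocyte line, which carried the CPD photolyase of Potorous tridactylus in every group. CPDs are the cyclobutane pyrimidine dimers that UVC makes in DNA, and the enzyme splits them only under visible light. The 3 groups of 2 libraries were cells given 15 J/m2 of UVC (254 nm) with the photolyase switched on by 2 h of white light (active photolyase), cells given the same UVC dose with the photolyase off (UVC), and untreated cells with the photolyase off (control). UVC-treated cells were collected at 6 h. White light was used only where the photolyase was active, so the light and the enzyme cannot be told apart.

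Many cytokine mRNAs are short-lived because their 3' untranslated region (3'UTR) holds copies of AUUUA or a small hairpin. ZFP36 (tristetraprolin) and its paralogs ZFP36L1 and ZFP36L2 are zinc finger proteins that bind AU-rich elements and bring in the CCR4-NOT deadenylase. KHSRP also promotes decay of such RNAs, whereas ELAVL1 (HuR) generally stabilises them. ZC3H12A (Regnase-1) is an endonuclease that cuts RNAs at stem-loops, and RC3H1 and RC3H2 (Roquin-1 and Roquin-2) bind similar stem-loops and bring in CCR4-NOT. In keratinocytes and immune cells ZFP36 and ZC3H12A are known for restraining inflammatory transcripts.

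The elements themselves show what is being read. The following sites were taken from GENCODE 29 transcripts (GRCh38), as the 30 bases of the 3'UTR with the most overlapping copies of ATTTA, which are in capitals (T stands for U). TNF, CXCL2, CXCL8 and IL6 are textbook cytokine and chemokine targets, and ZFP36 is shown because its own mRNA carries the element.
TNF, chr6:31578004-31578033, plus strand: ttattATTTATTTAttATTTATTTATTTAc
CXCL2, chr4:74097585-74097614, minus strand: ttctATTTATTTATTTATTTATTTAtttgt
CXCL8, chr4:73743111-73743140, plus strand: cctATTTAttATTTAtgtATTTATTTAagc
IL6, chr7:22731705-22731734, plus strand: atttttaATTTAttaatATTTAaatatgtg
ZFP36, chr19:39409188-39409217, plus strand: cctttATTTAtgacgactttATTTAttcta

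The 3'UTR of TNF held 9 copies of ATTTA in 799 bases. Among 1647 other tested genes with a 3'UTR within 25% of that length, the median was 1 copy, and 0.243% had at least as many. That of ZFP36 held 5 copies in 713 bases, a number reached by 5.76% of 1631 genes of similar 3'UTR length. The longer element TTATTTATT, a preferred site of ZFP36 proteins, was present in 8.30% of the 11373 tested genes with a 3'UTR here. It was found once each in ZFP36, ZFP36L1, ZFP36L2 and ELAVL1, and 2 times in RC3H2. Of genes of similar 3'UTR length, 4.54% held it for ZFP36, 8.78% for ZFP36L1 and 9.05% for ZFP36L2. For the longer 3'UTRs of ELAVL1 and RC3H2 these shares were 22.4% and 22.9%. The sequence ATTTA was not found in the 3'UTRs of KHSRP and ZC3H12A used here.

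Stem-loops of the kind read by ZC3H12A and the Roquins were searched on the transcript strand as at least 5 Watson-Crick pairs around a triloop of pyrimidine, purine and pyrimidine. Such a hairpin was present in 24.4% of all 3'UTRs tested. The ZC3H12A 3'UTR held 3 in 768 bases, against 14.6% of 1629 genes of similar 3'UTR length that held any. RC3H1 held 5, RC3H2 2 and ELAVL1 1, where 69.2%, 61.9% and 61.0% of genes of similar 3'UTR length held any. None was found in ZFP36, ZFP36L1, ZFP36L2 and KHSRP, or in the target IL6. The hairpins shown are those of TNF, of NFKBIZ (an inflammatory regulator cut by ZC3H12A) and of ZC3H12A itself with at least 6 pairs, with the triloop in capitals.
TNF, chr6:31578107-31578121, plus strand: gttttcCGTgaaaac
NFKBIZ, chr3:101859471-101859487, plus strand: ttgtttcTATgaaacaa
NFKBIZ, chr3:101859500-101859514, plus strand: cactatTATatagtg
ZC3H12A, chr1:37483842-37483856, plus strand: gatacaCATtgtatc

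Levels are given as scaled cRPKM, that is, the deposited RPKM corrected for effective gene length, divided by the library's TMM factor (a trimmed-mean scaling factor from edgeR). Library totals were 69960028 and 67153025 reads with active photolyase, 58420526 and 57669389 after UVC, and 70005705 and 69585649 in control. Mitochondrially encoded genes took 4.09 and 3.21% of reads with active photolyase, 5.13 and 5.28% after UVC, and 3.32 and 3.92% in control; their part in the results was not tested. The scaling matters here. With library totals alone in place of TMM factors the median change of all 11926 genes tested moved to 0.42 on the log2 scale for UVC against control, and to -0.34 for active photolyase against UVC, from values within 0.04 of 0. All 8 keratinocyte markers passed the filter. Their summed scaled cRPKM was 25850 and 25899 with active photolyase, 15535 and 15205 after UVC, and 28148 and 27405 in control. The markers did not move alike, as 7 were called lower after UVC and 1 higher (6 and 2 with library totals). KRT17, the largest part of the sum in control, had 5498 and 5451 after UVC against 13671 and 13679 in control. KRT5 was higher after UVC, at 3158 and 3103 against 2629 and 2390 in control. The part of these differences in the results was not tested. Of other cell types' markers 7 of 23 passed the filter. Summed levels were 1.35 to 2.25 for 7 melanocyte markers and 7.45 to 10.2 for 8 fibroblast markers. For 8 immune markers the sums were 188 and 198 with active photolyase, 181 and 183 after UVC, and 146 and 132 in control, nearly all from CD68 and CD74. PTPRC, a defining leukocyte gene, was at most 0.0451, and MS4A1, NKG7 and TYR were at 0. In bulk RNA, fewer cells holding a transcript and less of it per cell cannot be told apart.

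The first question was which of these transcripts differed after irradiation. ZFP36 and ZC3H12A rose more than 2-fold, while RC3H2, RC3H1, ZFP36L1, ZFP36L2 and KHSRP fell relative to the bulk of transcripts. With library totals ZFP36L2 and KHSRP stood slightly above control instead. By edgeR's quasi-likelihood test at an adjusted p under 0.05, all 8 were called, 3 higher and 5 lower, where 85.6% of all genes tested were called (42.5% higher and 43.1% lower). With so many genes called, a call says little of the 8, and the sizes are given for that reason. Calls of at least 2-fold made up 9.89% of genes upward and 18.6% downward. The median log2 change was -0.33 over the 8, beside 0.00 over all genes tested.

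ZFP36 (ENSG00000128016) had 60.4 and 55.5 scaled cRPKM with active photolyase, 128 and 126 after UVC, and 58.2 and 59.8 in control. Both UVC libraries lay far above the other 4, and the active-photolyase libraries bracketed control. After UVC it averaged 127 ± 1.93 against 59.0 ± 1.12 in control (SD, n = 2 per group). That was 2.15-fold, or 1.11 ± 0.05 on the log2 scale (SE; edgeR adjusted p = 1.86e-10), and 1.52 with library totals. ZFP36 stood at percentile 91.8 of the changes of all genes tested.

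ZC3H12A (ENSG00000163874), the endonuclease, was also highest after UVC, and with active photolyase it lay between UVC and control. Its levels were 29.4 and 27.6 with active photolyase, 47.9 and 44.4 after UVC, and 19.5 in each control library. No groups overlapped. The log2 fold change of UVC over control was 1.24 ± 0.06 (edgeR adjusted p = 7.65e-11), at percentile 93.8 of all genes, and 1.66 with library totals.

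**Figure D1:**
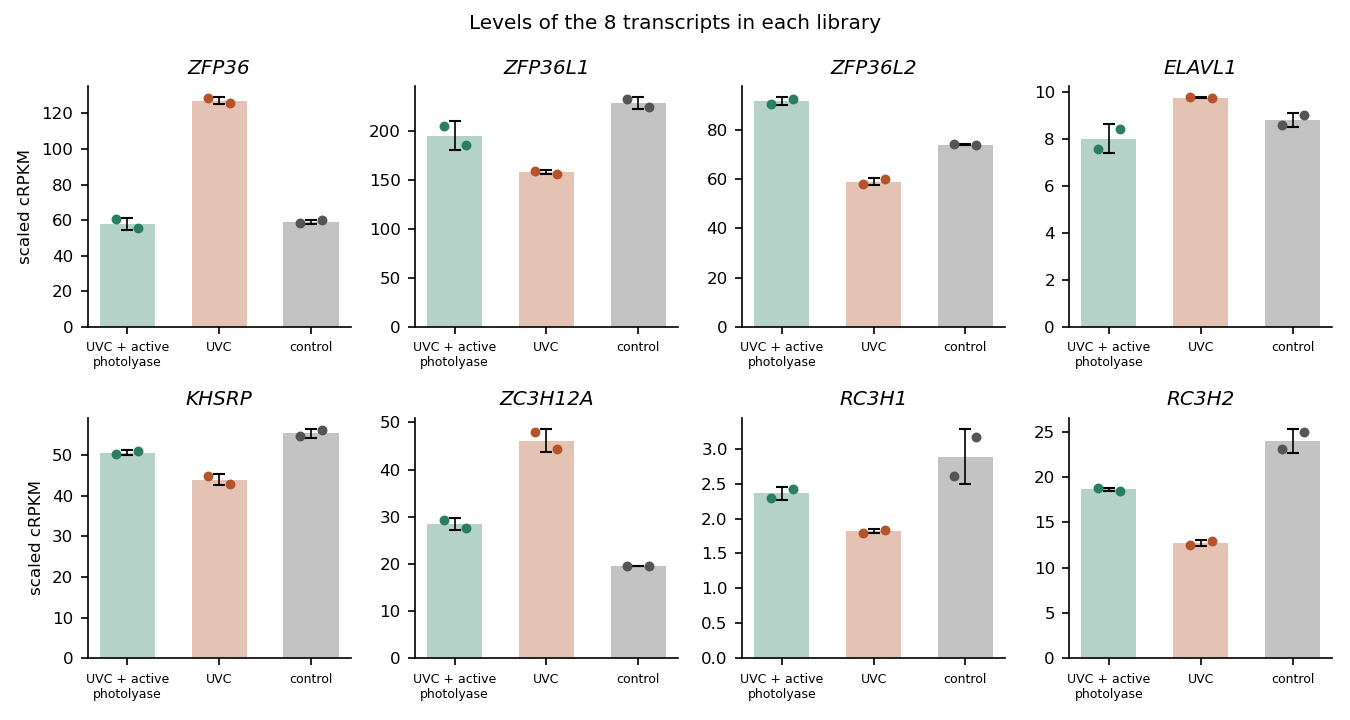
Scaled cRPKM (vertical axis, from 0) of each of the 8 transcripts in cells given UVC with active photolyase, cells given UVC, and control; points are libraries, bars the group mean and error bars the SD (n = 2). ZFP36 and ZC3H12A are highest after UVC, at 127 and 46.2 on average, while RC3H2 is lowest there, at 12.7; with library totals in place of TMM factors the UVC bars of ZFP36L2 and KHSRP would lie slightly above control.

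The paralogs of ZFP36 did not rise with it. ZFP36L1 (ENSG00000185650), the most abundant of the 8 in every group, had 206 and 185 with active photolyase, 160 and 156 after UVC, and 233 and 224 in control. The UVC libraries were the lowest and control the highest, with no overlap. Its UVC change was -0.53 ± 0.06 (edgeR adjusted p = 1.28e-06), but -0.12 with library totals, which did not pass (adjusted p = 0.0776). ZFP36L2 (ENSG00000152518) had 90.5 and 92.8 with active photolyase, 58.1 and 59.9 after UVC, and 74.2 and 73.8 in control. Its UVC change was -0.33 ± 0.05 (edgeR adjusted p = 3.03e-05), which turned to 0.09 with library totals (adjusted p = 0.111). Of the 8, ZFP36L2 was the one whose level was highest with active photolyase.

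Shares within a library need no scaling between libraries. ZFP36 made up 16.8 ± 0.22% of the summed cRPKM of ZFP36, ZFP36L1 and ZFP36L2 with active photolyase, 36.9 ± 0.25% after UVC, and 16.3 ± 0.54% in control (SD, n = 2). ZFP36L1 held 56.6 ± 1.5% with active photolyase, 45.9 ± 0.28% after UVC and 63.2 ± 0.76% in control. The cRPKM of ZFP36 was 0.296 ± 0.0040 of that of ZFP36L1 with active photolyase, 0.804 ± 0.00054 after UVC, and 0.259 ± 0.012 in control. The change within the family was therefore unequal under any scaling of the libraries; with 2 libraries a group an exact permutation test of a share cannot reach 0.05, and none was run.

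**Figure D2:**
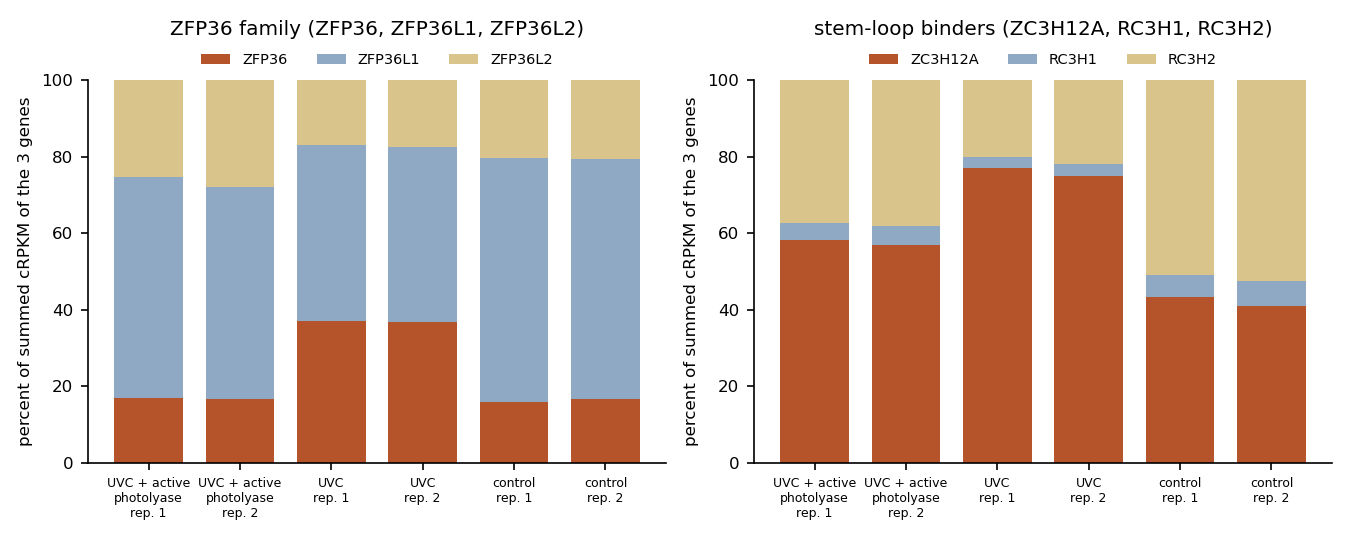
Percent of the summed deposited cRPKM (vertical axis, from 0) held by each gene in each library, for ZFP36, ZFP36L1 and ZFP36L2 (left) and for ZC3H12A, RC3H1 and RC3H2 (right); bars are single libraries. ZFP36 takes 36.9% on average after UVC and 16.8 and 16.3% with active photolyase and in control, and ZC3H12A takes 76.1% after UVC, 57.6% with active photolyase and 42.1% in control.

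Of the stem-loop binders, the Roquin transcripts moved opposite to ZC3H12A. RC3H2 (ENSG00000056586) had 18.8 and 18.5 with active photolyase, 12.5 and 12.9 after UVC, and 23.0 and 24.9 in control. It fell after UVC to 12.7 ± 0.32 on average, against 24.0 ± 1.33 in control, a log2 fold change of -0.92 ± 0.05 (edgeR adjusted p = 1.35e-09), and to -0.50 with library totals. RC3H1 (ENSG00000135870), the least abundant of the 8, had 2.30 and 2.42 with active photolyase, 1.80 and 1.84 after UVC, and 2.60 and 3.17 in control. The groups did not overlap, but the control libraries were far apart. Its counts were still 1378 to 2173 reads a library. The log2 fold change was -0.67 ± 0.08 (edgeR adjusted p = 3.42e-06), and -0.26 with library totals. As a share of the summed cRPKM of ZC3H12A, RC3H1 and RC3H2, ZC3H12A held 57.6 ± 0.94% with active photolyase, 76.1 ± 1.40% after UVC, and 42.1 ± 1.59% in control. RC3H2 exceeded ZC3H12A only in control.

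KHSRP and ELAVL1 differed far less after UVC than ZFP36 and ZC3H12A. KHSRP (ENSG00000088247) had 50.1 and 51.0 with active photolyase, 44.9 and 43.0 after UVC, and 54.5 and 56.1 in control. Its UVC change was -0.33 ± 0.05 (edgeR adjusted p = 2.31e-05), turned to 0.08 with library totals (adjusted p = 0.128). ELAVL1 (ENSG00000066044), the stabilising factor, had 7.57 and 8.43 with active photolyase, 9.75 and 9.75 after UVC, and 8.58 and 9.0 in control. Its UVC change was 0.15 ± 0.06 (edgeR adjusted p = 0.0307), and 0.56 with library totals. That call was lost without control replicate 1 (0.12, adjusted p = 0.12), without UVC replicate 1 (0.15, adjusted p = 0.102) and without UVC replicate 2 (0.15, adjusted p = 0.0998). It was lost as well with the DESeq2 test (0.14, adjusted p = 0.0596) and with no filter on low values (0.06, adjusted p = 0.435). Within libraries, the cRPKM of KHSRP was 6.33 ± 0.41 times that of ELAVL1 with active photolyase, 4.51 ± 0.14 times after UVC, and 6.29 ± 0.089 times in control.

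**Figure D3:**
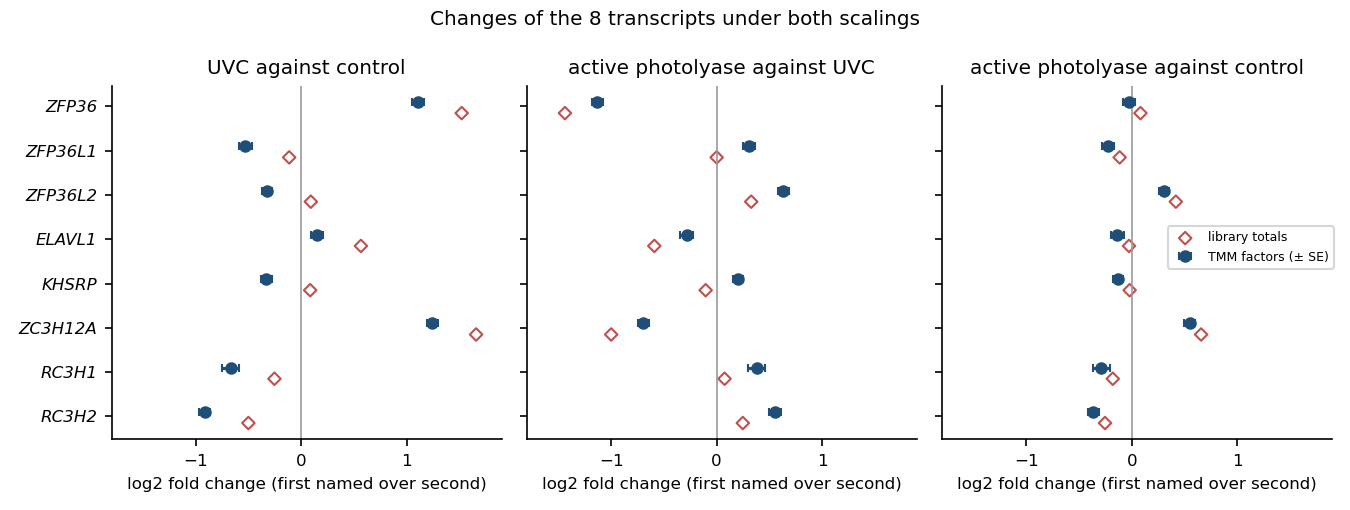
Log2 fold changes (horizontal axes, first-named group over the second) of the 8 transcripts in the 3 comparisons; filled circles are edgeR estimates with TMM factors and their SE, open diamonds those with library totals. ZFP36 (1.11) and ZC3H12A (1.24) lie to the right of 0 after UVC under both scalings, whereas ZFP36L2 and KHSRP change side.

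Gene length was set beside these changes, since UVC lesions, which block transcription, are more numerous per gene in longer genes. Spans in GENCODE 29 ran from 2.60 kb for ZFP36 to 91.1 kb for RC3H1. The median UVC change of 360 tested genes within 25% of the span of ZFP36 was 0.48, with an upper quartile of 0.89, so ZFP36 at 1.11 lay above most genes of its length. ZC3H12A (9.83 kb) lay above the upper quartile, 0.67, of 1194 genes of like span. ZFP36L1 (8.59 kb) and ZFP36L2 (4.21 kb) lay below the lower quartiles of theirs, which were -0.30 and -0.11. RC3H2 (60.8 kb), at -0.92, lay just above the lower quartile of -0.99 of 1596 genes, and RC3H1, at -0.67, above that of -1.18 of 1309 genes. KHSRP (11.4 kb) and ELAVL1 (47.1 kb) also lay between the quartiles of genes of like span. The part of gene length in these changes was not tested.

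The next comparison, of active photolyase with UVC, concerns the enzyme and its light in irradiated cells. ZFP36, ZC3H12A and ELAVL1 fell, and RC3H2, RC3H1, ZFP36L1, ZFP36L2 and KHSRP rose; with library totals KHSRP stood below UVC, at -0.10 (adjusted p = 0.0653). All 8 were called, 5 higher and 3 lower, where 79.1% of all genes tested were called (39.2% higher and 39.9% lower). The same UVC libraries enter this comparison and the one above, so their values are given side by side and not correlated.

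ZFP36 averaged 57.9 ± 3.47 scaled cRPKM with active photolyase against 127 ± 1.93 after UVC, and fell by 1.13 on the log2 scale (SE 0.05, edgeR adjusted p = 2.3e-10). Calls of at least 2-fold made up 14% of genes upward and 1.37% downward, and ZFP36 stood at percentile 0.83. ZC3H12A fell by 0.69 (SE 0.05, edgeR adjusted p = 5.02e-08), to 28.5 ± 1.2 against 46.2 ± 2.45 after UVC. ELAVL1 fell by 0.29 (SE 0.06, edgeR adjusted p = 0.000604). With library totals the changes were larger, at -1.44 for ZFP36 and -0.59 for ELAVL1.

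ZFP36L2 rose by 0.63 ± 0.05 (edgeR adjusted p = 5.35e-08), to 91.6 ± 1.62 with active photolyase against 59.0 ± 1.29 after UVC, and RC3H2 by 0.55 ± 0.05 (adjusted p = 4.56e-07). Both were also called upward with library totals (0.33 and 0.25). The changes of ZFP36L1 (0.31 ± 0.06), RC3H1 (0.38 ± 0.08) and KHSRP (0.20 ± 0.05) were called with TMM factors and with DESeq2 size factors, but not with library totals. There ZFP36L1 was at 0.00 (adjusted p = 0.989) and RC3H1 at 0.08 (adjusted p = 0.39). KHSRP also lost its call under the filter of 5 cRPKM (0.11, adjusted p = 0.0562).

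Active photolyase against control sets irradiated cells with the enzyme on beside cells never irradiated. ZC3H12A stayed higher, at 28.5 ± 1.2 with active photolyase against 19.5 ± 0.017 in control, a log2 fold change of 0.55 ± 0.06 (edgeR adjusted p = 1.76e-06), and 0.66 with library totals. ZFP36L2 was higher as well, at 91.6 ± 1.62 with active photolyase against 74.0 ± 0.26 in control (0.31 ± 0.05, adjusted p = 0.000112), and 0.42 with library totals. RC3H2 stayed lower, at 18.6 ± 0.20 with active photolyase against 24.0 ± 1.33 in control (-0.36 ± 0.05, adjusted p = 4.79e-05), and -0.25 with library totals. For ZFP36 the difference was -0.03 ± 0.05 (adjusted p = 0.671), 0.08 with library totals, and -0.09 to 0.04 when single libraries were left out.

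In all, 2 of the 8 were called higher and 4 lower in this comparison, where 65.8% of all genes tested were called (33% higher and 32.9% lower; at least 2-fold, 4.06% higher and 2.02% lower). The other calls downward were lost when single libraries were left out. ZFP36L1 was at -0.22 ± 0.06 (edgeR adjusted p = 0.00435) and lost its call without active-photolyase replicate 2 (-0.15, adjusted p = 0.0778). RC3H1 was at -0.29 ± 0.08 (adjusted p = 0.00642) and lost it without control replicate 2 (-0.14, adjusted p = 0.0856) or active-photolyase replicate 1 (-0.25, adjusted p = 0.0561). KHSRP was at -0.13 ± 0.05 (adjusted p = 0.0318) and lost it without control replicate 2 (-0.11, adjusted p = 0.0918), active-photolyase replicate 1 (-0.12, adjusted p = 0.143) or active-photolyase replicate 2 (-0.14, adjusted p = 0.0884). ELAVL1, at -0.14 ± 0.06, was not called (adjusted p = 0.0604), but was without control replicate 1 (-0.17, adjusted p = 0.0376) or active-photolyase replicate 2 (-0.21, adjusted p = 0.0193).

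The order of the 8 levels changed between groups. With active photolyase it ran from ZFP36L1 through ZFP36L2, ZFP36, KHSRP, ZC3H12A, RC3H2 and ELAVL1 to RC3H1. After UVC, ZFP36 moved up to rank 2 behind ZFP36L1, and ZC3H12A to rank 4, where its range overlapped that of KHSRP. In control the order was that with active photolyase, except that RC3H2 stood above ZC3H12A. No other neighbours in these orders overlapped. In each group the highest of the 8 exceeded the lowest by far, as ZFP36L1 averaged 195 ± 14.3 and RC3H1 2.36 ± 0.091 with active photolyase.

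Genes with the most similar profiles were sought by the Euclidean distance of gene-centred log2(scaled cRPKM + 1) over the 6 libraries, among 7892 genes averaging at least 5 scaled cRPKM. For ZC3H12A the nearest were IL1B (distance 0.076), SOCS3 (0.083) and CACNB3 (0.10). For ZFP36 they were RHOV (0.14), ABCC5 (0.18) and HES1 (0.21). IL1B encodes the cytokine interleukin 1 beta and SOCS3 an inhibitor of cytokine receptor signalling. The nearest genes to ZFP36L2 were PRSS8 (0.052), NR2C2AP (0.069) and IER5 (0.080), and to RC3H2 GOSR1 (0.046), TBP (0.049) and MAGT1 (0.054). For ELAVL1 they were DRG2, MEMO1 and THOC2, for KHSRP WDR55, LRRC47 and SCAF1, for ZFP36L1 CADM4, MCPH1 and SPATA5L1, and for RC3H1 BPTF, TPR and TSTD2.

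The enzymes these proteins recruit were read from lists, whose counts stand beside those of all genes tested. After UVC 42.5% of all genes were called higher and 43.1% lower, and with library totals 59.5% higher and 29.7% lower. For active photolyase against UVC these shares were 39.2% higher and 39.9% lower, and with library totals 27.9% higher and 58.2% lower. After UVC, of 16 genes for CCR4-NOT and its recruiters 3 rose and 9 fell. Their median change was -0.59 on the log2 scale, beside 0.00 for all genes tested; with library totals 7 rose and 8 fell. The antiproliferative adaptors TOB1 (0.96 ± 0.05) and BTG2 (0.89 ± 0.05) rose most. The largest falls were those of the ubiquitin ligase gene CNOT4 (-1.72 ± 0.07) and the deadenylase gene CNOT6 (-1.54 ± 0.06). With active photolyase against UVC 11 of the 16 rose and 3 fell (median 0.31), with CNOT6 at 1.37 ± 0.06 and CNOT4 at 1.14 ± 0.07. With library totals 7 rose and 5 fell there (median 0.00).

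Among the other poly(A) factors, PAN2, a deadenylase subunit, rose after UVC by 1.17 ± 0.07, and NOCT fell by 1.64 (SE 0.07), as did PABPC4, a poly(A)-binding protein gene, by 0.90 (SE 0.06). In that list of 6, 1 rose and 4 fell after UVC (median -0.48), and with active photolyase against UVC 3 rose and 2 fell (median 0.18). With library totals the numbers were 2 and 2 after UVC (median -0.07), and 2 and 3 for active photolyase against UVC (median -0.13). A difference of so short a list from all genes was not tested. Decapping and 5' to 3' decay genes had 7 rises and 7 falls of 16 after UVC (median 0.00), and 10 and 3 with library totals, both near the shares of all genes (42.5% and 43.1%; 59.5% and 29.7% with library totals). Within them, DDX6, a helicase that joins deadenylation to decapping, fell by 2.09 (SE 0.05), and EIF4ENIF1 by 2.37 (SE 0.09), while LSM2 rose by 0.99 ± 0.08. Of 17 exosome and SKI genes 8 rose and 6 fell (median 0.09; 11 and 6 with library totals), led by the nuclease genes DIS3L (1.19 ± 0.06) upward and DIS3 (-1.53 ± 0.05) downward. In the comparison of active photolyase with UVC these 2 lists had 6 rises each, and 7 falls for decapping and 9 for the exosome; with library totals, 3 rises and 10 falls for decapping, and 5 and 10 for the exosome. These counts were near the shares of all genes or, for the falls of the exosome list with TMM factors, a few genes above them, and are not read as particular to either list.

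Other AU-rich element binding proteins mostly fell after UVC. Among 14 tested there were 2 rises and 12 falls, and the median was -0.63 (4, 8 and -0.22 with library totals), where 42.5% of all genes were called higher and 43.1% lower (59.5% and 29.7% with library totals). TIA1, a translational silencer, rose by 1.03 ± 0.08 and AUH by 0.54 ± 0.08. N4BP1 fell by 1.74 (SE 0.06). With active photolyase against UVC 12 of the 14 rose and 2 fell (median 0.73; 9 and 2 with library totals), where 39.2% of all genes were called higher and 39.9% lower (27.9% and 58.2% with library totals). N4BP1 was at 1.55 ± 0.06 and TIA1 at -0.39 ± 0.08.

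ZFP36 protein is inactivated by the kinase MAPKAPK2 (MK2) downstream of p38, and 14-3-3 proteins hold it in that state. These libraries give mRNA levels alone, and neither the state of the protein nor RNA half-life was measured in them. MAPKAPK2 had 57.1 and 55.7 scaled cRPKM with active photolyase, 11.4 and 11.9 after UVC, and 75.1 and 74.0 in control. The UVC libraries lay far below all others, a log2 change of -2.67 ± 0.05 against control and of 2.27 ± 0.05 for active photolyase against UVC. The 14-3-3 zeta gene YWHAZ fell by 2.12 (SE 0.06) after UVC, and was at 1.28 ± 0.06 in active photolyase against UVC. DUSP1, the phosphatase that switches off p38, had 142 and 134 with active photolyase, 106 and 101 after UVC, and 74.4 and 72.3 in control, so that the groups did not overlap. For active photolyase against UVC its change was 0.41 ± 0.05, but 0.11 with library totals, which was not called (edgeR adjusted p = 0.0707). MAPK14, which encodes p38 alpha, rose after UVC by 0.26 ± 0.09, and by 0.68 with library totals. Of the 14 genes for kinases, phosphatases and adaptors 2 rose and 10 fell after UVC (median -0.67), and 10 rose and 2 fell with active photolyase against UVC (median 0.44). Of all genes, 42.5% were called higher and 43.1% lower after UVC, and 39.2% higher and 39.9% lower for active photolyase against UVC. With library totals, where the shares of all genes were 59.5% and 29.7% after UVC and 27.9% and 58.2% for active photolyase against UVC, the list's counts were 5 and 9 after UVC, and 8 and 4 for active photolyase against UVC. Against control, with active photolyase 1 rose (DUSP1, 0.91) and 13 fell, with a median of -0.22, where 33% of all genes were called higher and 32.9% lower. With library totals 1 rose and 6 fell, where 43.8% of all genes were called higher and 23.9% lower.

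**Figure D4:**
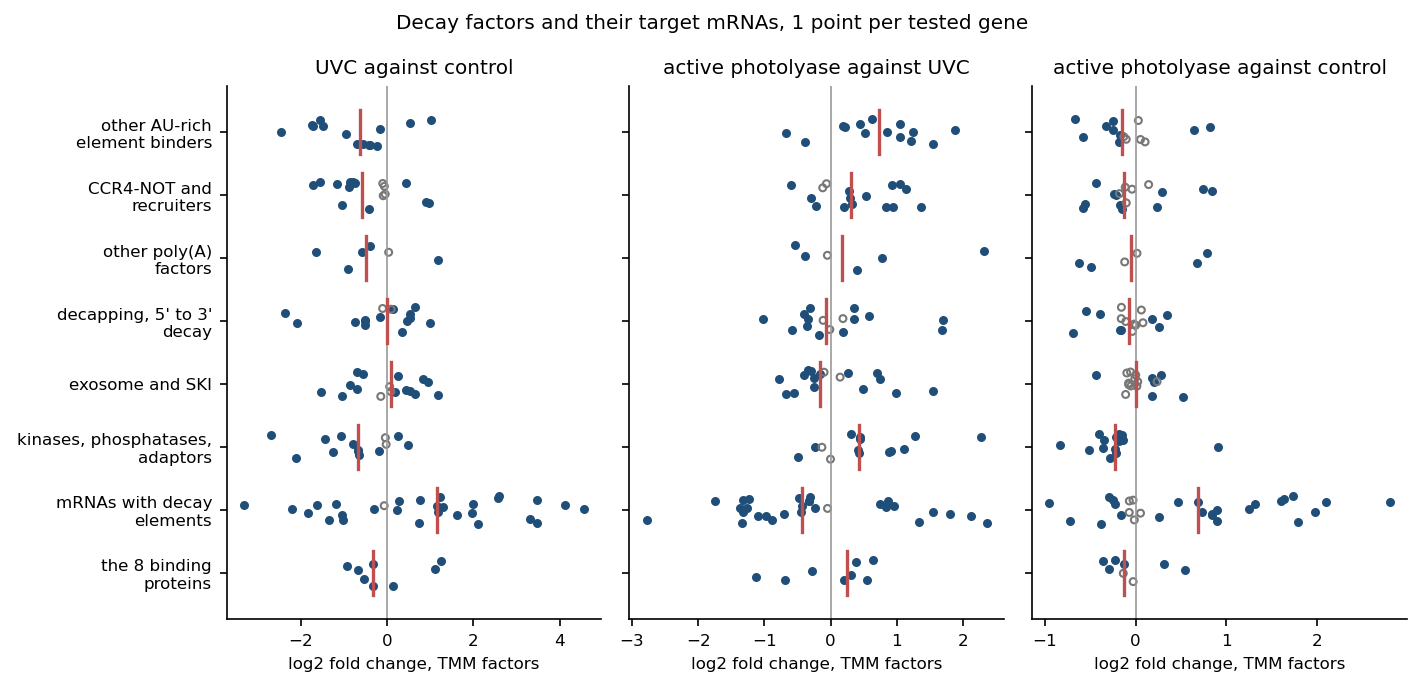
Log2 fold changes with TMM factors (horizontal axes) of the tested genes of 7 context lists and of the 8 binding proteins; filled points passed the edgeR test, open points did not, and red bars are list medians. After UVC the mRNAs with decay elements have a median of 1.15 and the 8 binding proteins one of -0.33, beside 0.00 for all genes tested. With library totals these medians are 1.56, 0.09 and 0.42.

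The mRNAs reported to be decay targets were listed from textbook examples. The list was made with earlier results of these data known, so its median is not independent of them. Among 29 tested there were 19 rises and 9 falls after UVC (20 and 8 with library totals). The median change was 1.15, beside 0.00 for all genes tested, and 1.56 with library totals, beside 0.42. Of all genes 42.5% were called higher and 43.1% lower there, and with library totals 59.5% and 29.7%. With active photolyase against UVC 9 rose and 19 fell (median -0.44, and -0.74 with library totals), where 39.2% of all genes were called higher and 39.9% lower. With library totals 9 rose and 20 fell there, where 27.9% of all genes were called higher and 58.2% lower (median -0.34). Against control 17 rose and 7 fell (median 0.68, and 0.79 with library totals), where 33% of all genes were called higher and 32.9% lower. The median of all genes tested was 0.12 in that comparison with library totals. TNF had 3.07 and 2.77 scaled cRPKM with active photolyase, 21.3 and 18.8 after UVC, and 0.733 and 0.961 in control. IL6 had 181 and 180 with active photolyase, 353 and 357 after UVC, and 56.2 and 62.8 in control. The levels of both were highest after UVC and lay between UVC and control with active photolyase. NFKBIZ showed the same order, with 30.7 and 29.3 with active photolyase, 42.4 and 39.7 after UVC, and 15.2 and 18.1 in control.

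The largest rises of the list after UVC were those of TNF (4.56 on the log2 scale) and of the interferon gene IFNB1 (4.12), which stayed higher with active photolyase than in control, at 1.79 and 2.80. CXCL8, whose AU-rich site is printed above, kept the same order with a small rise. It had 426 and 422 with active photolyase, 482 and 512 after UVC, and 409 and 408 in control, a UVC change of 0.28 ± 0.05 (edgeR adjusted p = 0.000186), and of 0.70 with library totals. Some listed targets did not follow. PLAUR, the urokinase receptor gene, fell by 3.32 (SE 0.07) after UVC, and MCL1, a survival gene, by 2.19 (SE 0.06). CSF2 was highest with active photolyase, at 6.35 and 6.23, against 3.56 and 3.34 after UVC and 1.74 and 2.33 in control.

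The element TTATTTATT was present in the 3'UTR of 13 of the 28 listed targets with a 3'UTR here (46.4%); the list was made of mRNAs known for such elements, so this share follows from the choice. With TMM factors, the element did not go with a rise across all tested genes. The 212 genes with 2 or more copies had a median UVC change of -0.29 and the 732 with 1 copy one of -0.37. The 6905 genes with ATTTA but without TTATTTATT had one of -0.15, and the 3524 genes with no ATTTA one of 0.30. Medians of these classes with library totals were not taken. That scaling moved the median UVC change of all genes to 0.42. These classes differ in 3'UTR length, with medians of 3460.5, 2670.5, 1505 and 357.5 bases, and the part of length was not tested.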

How the data were processed

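RNA sequencing libraries of HaCaT cells (TruSeq kit, per the labels) were aligned with Bowtie to hg19, per the submitters' processing notes; the sources used here do not give the aligner's version, the counting rule or its use of strand. For each Ensembl gene the authors deposited a read count and a length-corrected RPKM (cRPKM) per library. That deposited RPKM is the count over an effective length and the library total, as the values show: the implied length differed by at most 0.183% between libraries for 6664 genes. Of 19847 rows, 354 did not have a value in every library and were left out. Symbols came from an Ensembl table (18698 of 19493 matched).

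Counts were tested with edgeR 4.0.16 (R 4.3.3), by a quasi-likelihood fit of 3 group means to all 6 libraries (3 residual and 10.03 prior degrees of freedom), with TMM factors of 0.954 and 0.957 for active photolyase, 1.18 for both UVC libraries, and 0.887 and 0.885 for control. Genes with at least 1 cRPKM in 2 libraries (11926) were tested, two-sided, with Benjamini-Hochberg adjustment over all of them and a threshold of 0.05. Standard errors came from the fold change and F. The common biological coefficient of variation was 4.62%. Counts of replicates were further apart than sampling noise (chi-square per degree of freedom 15.0 with active photolyase, 5.59 after UVC and 24.2 in control). Whether replicates came from separate cultures is not in the labels; the p-values therefore reflect the spread among these libraries alone, which may be technical. TMM takes most genes as unchanged, so changes are relative to the bulk of transcripts.

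The members, the lists, the named genes and the tests were chosen with earlier results of these data known. Named were the 8 members, the 2 largest called rises and falls of each list after UVC, and the 3 genes nearest to each member, not all of which are reported here; CXCL2, CXCL8, IL6, NFKBIZ and CSF2 were chosen in addition, after their values were seen. For 3'UTRs the GENCODE 29 principal transcript was used, which the authors' annotation may not match. Alternatives were library totals, DESeq2 size factors, DESeq2 1.42.0, limma 3.58.1 on log2(cRPKM + 1) and log2(cRPKM + 0.1), no filter, a filter of 5 cRPKM, a replicate block, and each library left out.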

Additional observations from a re-analysis of the deposited data

How the results depend on the processing

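The rises of ZFP36 and ZC3H12A and the falls of RC3H1 and RC3H2 after UVC kept direction and call under every alternative run, except that RC3H1 was not tested with a filter of 5 cRPKM. Their log2 changes ran over 1.01 to 1.52, 1.15 to 1.66, -0.81 to -0.17 and -1.01 to -0.48. Scaling by library totals, and limma on values as deposited at either pseudocount, had the largest effect. After UVC the members called lower became 2 under each of the 3, ZFP36L2 turned to 0.0895, 0.0879 and 0.0891, and KHSRP to 0.0835, 0.0816 and 0.0830 (library totals, limma with a pseudocount of 1 and of 0.1). For active photolyase against UVC the members called higher became 2 under each of the 3, and 3 with the filter of 5 cRPKM. There KHSRP turned to -0.10 under all 3, and ZFP36L1 to -0.00086 with limma at a pseudocount of 1 and -0.00087 at 0.1. For active photolyase against control the members called lower became 1 under each of the 3, 2 with the filter of 5 cRPKM and 2 to 5 when single libraries were left out. ZFP36 turned there to 0.0823, 0.0795 and 0.0808, and ranged over -0.0899 to 0.0355 without single libraries. The members called higher after UVC were 2 or 3 without single libraries. When replicate number was fitted as a block, the change of ELAVL1 in active photolyase against control was called (-0.14, adjusted p = 0.0405), and no other member's call changed. The replicates share only a number: the correlation of replicate differences was 0.18 between active photolyase and UVC, 0.046 between active photolyase and control, and -0.019 between UVC and control. The cause of these shifts was not tested beyond the scaling itself, which moves all genes of a comparison together. Of 333 values for single members under an alternative, 285 kept direction and call. At 1378 reads or more per member and library, depth did not limit detection, but 2 libraries a group limit every error given.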
